A study of Mus musculus with 2 samples.

Results

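The genes of cAMP signalling described here are the adenylyl cyclases, the cyclic nucleotide phosphodiesterases, the subunits of protein kinase A (PKA) and the A-kinase anchoring proteins. They were chosen by gene symbol alone (Adcy, Pde or Akap followed by a number and at most 1 letter, and the 6 PKA subunit genes Prkaca, Prkacb, Prkar1a, Prkar1b, Prkar2a and Prkar2b). Earlier results of these data were known when the symbols and the gene lists used below were chosen. The symbols gave 57 of the 55536 genes in the gene tables: 10 cyclases, 25 phosphodiesterases, 6 PKA subunits and 16 anchors. The samples were 2 libraries of 1 group, total RNA of the left cerebral cortex from female B6CASTF1/J mice aged 14 days, a cross of C57BL/6J and CAST/EiJ. Each library was made from 300 ng of RNA with ERCC spike-ins, synthetic RNAs added in known amounts. The labels call the libraries biological replicates 1 and 2, yet give both the same donor entry. Both libraries are described as 3 females, and so is the tissue of replicate 1, while the tissue label of replicate 2 names a numbered female, and the sources used here do not say whether a library holds RNA of several mice. No treatment, genotype or age was compared, so the data allow levels within this tissue and the difference between the libraries. That difference may be technical.

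Cyclic AMP is made from ATP by adenylyl cyclases, most of which sit in the membrane and answer to G proteins, and it is broken down by phosphodiesterases. It frees the catalytic subunits of PKA from their regulatory subunits, and anchoring proteins hold the kinase close to particular receptors, channels and organelles. In cortical neurons the pathway is known for its part in synaptic plasticity and in transcription through CREB.

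The catalytic subunits of PKA differ at their N-terminal end by the first coding exon that is used, and shares of such starts are among the results. The first 90 coding bases of 4 of the transcripts, from GENCODE M21, are shown 5′ to 3′. The first coding exon is in lower case and the start of the next exon in capitals.
Prkaca-201: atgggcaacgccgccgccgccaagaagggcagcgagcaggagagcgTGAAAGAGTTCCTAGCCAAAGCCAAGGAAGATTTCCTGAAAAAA
Prkacb-202: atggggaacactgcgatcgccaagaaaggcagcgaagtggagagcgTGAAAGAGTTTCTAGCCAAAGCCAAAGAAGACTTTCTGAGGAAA
Prkacb-203: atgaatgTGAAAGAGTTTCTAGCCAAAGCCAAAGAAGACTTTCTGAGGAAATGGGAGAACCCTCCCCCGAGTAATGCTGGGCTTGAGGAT
Prkacb-204: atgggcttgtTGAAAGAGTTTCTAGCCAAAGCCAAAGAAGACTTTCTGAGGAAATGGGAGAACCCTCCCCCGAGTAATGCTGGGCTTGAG
The first coding exon lies at chr8:83973187-83973232 for Prkaca-201, on the forward strand. For Prkacb, on the reverse strand, it lies at chr3:146812638-146812683 (Prkacb-202), chr3:146769934-146769940 (Prkacb-203) and chr3:146770516-146770525 (Prkacb-204) of mm10. It holds 46 coding bases in Prkaca-201 and in Prkacb-202, 7 in Prkacb-203 and 10 in Prkacb-204. All 3 Prkacb transcripts shown then run into the same exon. Prkacb-201, Prkacb-207 and Prkacb-208 have longer first coding exons, of 187, 121 and 63 bases, and are not shown.

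Start sites of Prkacb and Prkar1a are shown too, because their transcripts begin at separate promoters. The windows are RefSeq's on GRCm38.p6, from 250 bases before to 50 bases after a RefSeq start, 5′ to 3′ on the gene's strand. Each is named after a GENCODE transcript that starts within 50 bases of the RefSeq start. Capitals mark the cAMP response element TGACGTCA, or its parts TGACG and CGTCA where they stand alone. The element reads the same on both strands, and each full element holds both parts.
Prkacb-202 start, chr3:146812897-146813196, reverse strand: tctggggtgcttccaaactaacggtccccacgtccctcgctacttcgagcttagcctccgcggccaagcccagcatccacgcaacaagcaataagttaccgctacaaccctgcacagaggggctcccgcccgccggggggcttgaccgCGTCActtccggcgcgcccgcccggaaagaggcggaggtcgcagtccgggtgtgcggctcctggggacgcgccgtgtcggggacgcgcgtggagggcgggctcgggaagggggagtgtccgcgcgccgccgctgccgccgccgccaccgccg
Prkacb-203 start, chr3:146770189-146770488, reverse strand: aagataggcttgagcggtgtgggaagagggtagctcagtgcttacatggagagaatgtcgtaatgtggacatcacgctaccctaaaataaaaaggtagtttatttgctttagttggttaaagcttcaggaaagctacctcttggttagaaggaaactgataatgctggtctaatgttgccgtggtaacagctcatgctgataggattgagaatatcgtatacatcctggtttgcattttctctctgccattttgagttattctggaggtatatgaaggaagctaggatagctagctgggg
Prkar1a-201 start, chr11:109650699-109650998, forward strand: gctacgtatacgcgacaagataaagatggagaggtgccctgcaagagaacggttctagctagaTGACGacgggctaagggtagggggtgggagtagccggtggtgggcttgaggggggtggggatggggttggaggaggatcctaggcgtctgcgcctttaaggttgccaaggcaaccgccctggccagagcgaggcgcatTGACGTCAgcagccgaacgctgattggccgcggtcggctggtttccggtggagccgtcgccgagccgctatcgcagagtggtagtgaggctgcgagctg
Prkar1a-203 start, chr11:109649113-109649412, forward strand: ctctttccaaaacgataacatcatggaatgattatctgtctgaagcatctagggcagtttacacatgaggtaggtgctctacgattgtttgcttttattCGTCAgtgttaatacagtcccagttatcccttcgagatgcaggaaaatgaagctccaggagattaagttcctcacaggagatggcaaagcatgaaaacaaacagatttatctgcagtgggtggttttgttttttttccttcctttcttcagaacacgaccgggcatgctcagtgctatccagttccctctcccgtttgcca
The windows of Prkacb-202 and Prkacb-203 differed in base composition, with 72.0% and 42.3% G or C and 41 and 5 CpG sites. For Prkar1a-201 and Prkar1a-203 the figures were 62.7% and 43.3% G or C, and 25 and 7 CpG sites. The full element stood 49 bases before the RefSeq start in the window of Prkar1a-201. A match describes letters in a window and does not show binding. All bases printed here and the motif counts are of the reference, and the CAST/EiJ allele of these mice was not examined.

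The gene tables held 33362704 counts for replicate 1 and 32013997 for replicate 2, and levels are given as TPM, a unit scaled for gene length and to a fixed total per table. Of the marker genes, 7 of 7 excitatory neuron genes and 7 of 7 inhibitory interneuron genes reached 1 TPM in both libraries, and none of 6 photoreceptor genes did. All 9 striatal genes reached it too, so this level does not tell cortex from other brain regions. The libraries stood apart in 3 marker lists. The summed level of 12 myelinating oligodendrocyte genes was 2461 TPM in replicate 1 and 1375 TPM in replicate 2, that of 9 striatal genes 309 and 200 TPM, and that of 8 choroid plexus genes 12.9 and 140.1 TPM. Of the choroid plexus genes, Ttr alone stood at 9.86 and 131 TPM, and 2 of the 8 reached 1 TPM in both libraries. In bulk tissue, fewer cells of a type and less RNA per cell cannot be told apart.

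Of the 57 genes, 47 were detected, that is, reached 1 TPM in both libraries. This was 82.5%, beside 26.6% of all genes and 59.0% of protein-coding genes. Together the members held 2394 TPM in replicate 1 and 2380 TPM in replicate 2. A mean of 10 TPM or more was reached by 36 members, and 11 others lay between 1 and 10 TPM. The PKA subunits took the largest part, 39.4% and 40.4% of the members' TPM in replicates 1 and 2. Phosphodiesterases took 26.2% and 25.2%, anchors 19.0% and 20.3%, and cyclases 15.4% and 14.1%. In the order of mean levels, 34 of 56 neighbouring pairs had library ranges that overlapped, so the order between such neighbours is not beyond the spread of the 2 libraries.

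The 10 members not detected were Adcy10, Pde4c, Pde6a, Pde6b, Pde6c, Pde6g, Pde6h, Akap3, Akap4 and Akap14. Pde6a, Pde6b and Pde6c encode the catalytic subunits of the photoreceptor enzymes and Pde6g and Pde6h their inhibitory subunits. Akap3 and Akap4 are known from the sperm tail. Adcy10, the soluble cyclase stimulated by bicarbonate, stood at 0.11 and 0.25 TPM. Akap4 and Akap14 had no count in either library. A count of 0 allows up to 3 counts of each library's total, for counting error only. Some members lay close to 1 TPM on either side, as the plot of levels by family shows. Pde3a stood at 1.08 and 1.17 TPM, just inside, and Pde6h at 0.52 and 0.75 TPM and Pde4c at 0.43 and 0.82 TPM, just outside.

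**Figure D1:**
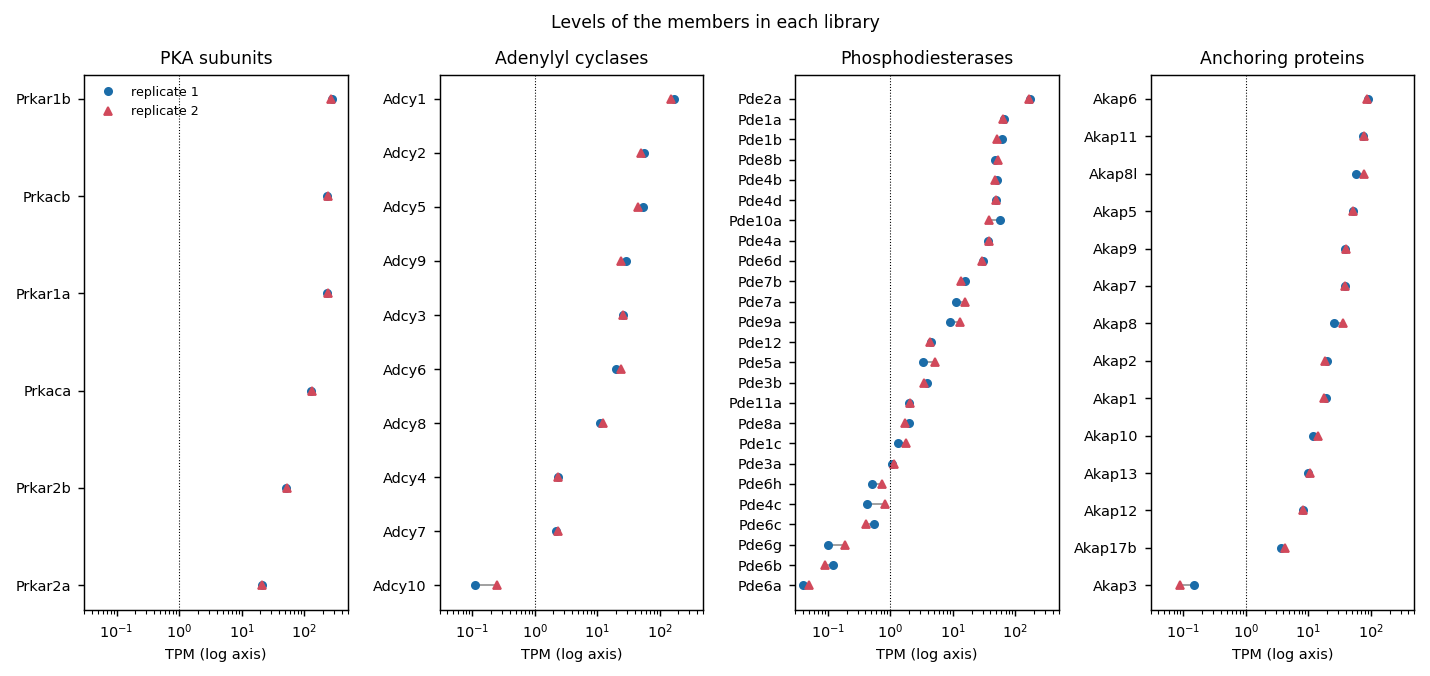
TPM of each member in replicate 1 (circles) and replicate 2 (triangles) on a log axis, by family, with a dotted line at 1 TPM. Akap4 and Akap14, listed at 0, are left out. All 6 PKA subunit genes lie above 20 TPM, while 6 phosphodiesterases, 1 cyclase and Akap3 lie below 1 TPM.

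PKA subunit genes took 4 of the 6 highest places in the order of levels, with Pde2a and Adcy1 between them. The catalytic genes summed to 371 ± 8.02 TPM (SD, n = 2) and the regulatory genes to 581 ± 4.48 TPM (SD, n = 2). Prkacb, which encodes the catalytic subunit C beta, stood at 235 and 244 TPM in replicates 1 and 2. Prkaca, for C alpha, stood at 131 and 133 TPM. Prkacb was thus above Prkaca in both libraries, with a ratio of 1.80 and 1.84. Among regulatory subunits, the type I genes led. Prkar1b, known as the neuronal type I subunit, stood at 276 and 270.3 TPM. Prkar1a, the widely expressed one, stood at 229 and 239 TPM, and the ranges of the pair did not overlap. Prkar2b, the type II subunit abundant in brain, stood at 51.6 and 53.6 TPM. Prkar2a stood at 20.97 and 21.5 TPM. The type I genes together were 6.97 and 6.78 times the type II genes, and regulatory over catalytic genes came to 1.58 and 1.55. The second quantification deposited for these libraries, made from the reads, gave a Prkacb over Prkaca ratio of 2.53 and 2.45 and a regulatory over catalytic ratio of 1.37 in both libraries. Its TPM had a median of 1.45 times those of the first over the 36 members at 10 TPM or more, and its order of the 57 members was nearly the same (Spearman correlation 0.992 across these genes, a description, since genes are no replicates).

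Transcript shares within some PKA genes were far apart between the quantifications. Prkaca-201 held 99.6% and 100% of Prkaca TPM in replicates 1 and 2, and 96.3% and 98.0% in the second quantification. Transcript 202 of Prkacb, with the 46-base exon, held 46.8% and 45.2%. Prkacb-203, with the 7-base exon, held 28.9% and 29.3%, and the short Prkacb-208 held 14.4% and 17.6%. The second quantification gave Prkacb-202 34.6% and 37.8% and Prkacb-203 17.8% and 16.9%, so Prkacb-202 was above Prkacb-203 in both libraries of both. Prkacb-204 held 8.52% and 6.52% in the first quantification. Its share and that of Prkacb-208 in the second are not given here. For Prkar1a the tables did not give the same start. Prkar1a-201, at the window with the full element, held 75.9% in both libraries in the first quantification but 12.8% and 0.0542% in the second. Prkar1a-203 held 17.8% and 16.0% in the first and 84.0% and 95.2% in the second. Prkar1b differed in the same way, with Prkar1b-201 at 93.8% and 95.4% in the first and at 17.1% and 22.2% in the second, where Prkar1b-203 led with 38.4% and 38.5%. The leading start of Prkar1a and of Prkar1b thus differed between the quantifications. Prkar2b-202 held 58.9% and 62.7%, and 66.8% and 63.9% in the second quantification, and Prkar2b-201 held 34.9% in both libraries of the first. Prkar2a-201 led in both quantifications, with 90.4% and 94.4% in the first and 64.3% and 72.9% in the second.

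**Figure D2:**
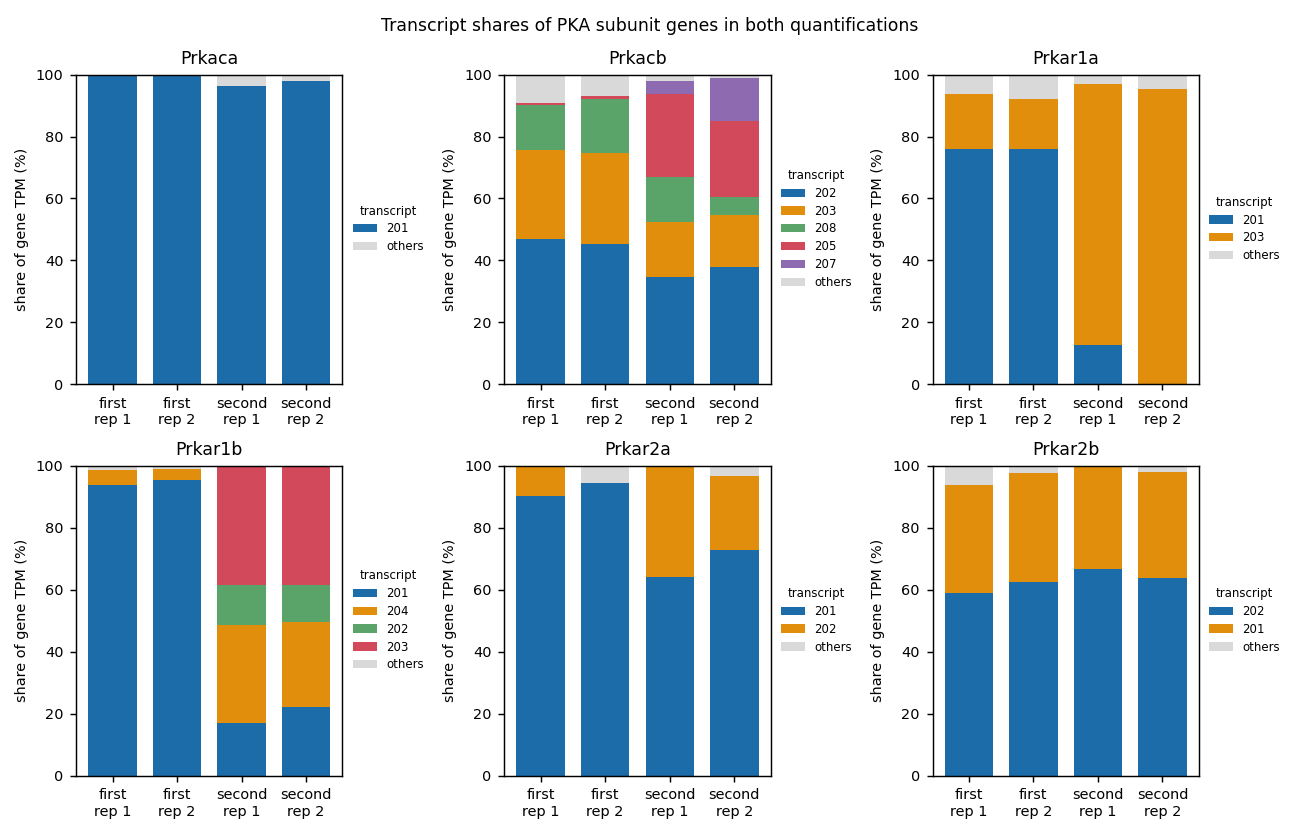
Share of each PKA subunit gene's TPM by annotated transcript (vertical axis, percent) in replicates 1 and 2 of the first and the second quantification; transcripts under 10% in all 4 are pooled in grey. Prkaca has 1 transcript near 100% throughout, while the leading transcript of Prkar1a and of Prkar1b changes with the quantification.

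Among the cyclases, those stimulated by calcium and calmodulin summed highest, to 196 ± 10.1 TPM (SD, n = 2). Adcy1, known for its part in cortical map formation and plasticity, made up most of it with 167 TPM in replicate 1 and 151 TPM in replicate 2. Adcy3, best known from neuronal cilia and olfactory neurons, stood at 25.5 and 25.7 TPM. Adcy8, the other calcium-stimulated cyclase of synapses, stood at 10.9 and 12.3 TPM. Adcy1 was 15.3 and 12.2 times Adcy8. Adcy2, stimulated by G protein beta gamma subunits, followed Adcy1 at 56.0 and 49.9 TPM. Its relatives Adcy4 and Adcy7 stood at 2.40 and 2.39 TPM and at 2.21 and 2.34 TPM. The calcium-inhibited pair was led by Adcy5, the main cyclase of the striatum, with 54.9 and 45.3 TPM. Adcy6 stood at 20.4 and 23.7 TPM. Adcy9, which responds weakly to forskolin, stood at 28.8 and 23.7 TPM, overlapping Adcy3. In the second quantification the 2 did not overlap, with Adcy3 at 46.6 and 42.9 TPM and Adcy9 at 39.6 and 33.1 TPM. A single transcript held nearly all of Adcy1 (Adcy1-201, 99.8% and 99.7%), Adcy2 (Adcy2-201, 100%) and Adcy5 (Adcy5-201, 97.3% in both). In Adcy8, Adcy8-201 held 60.9% and 45.5% and Adcy8-202 22.4% and 36.7%. The leading transcript of Adcy9 was Adcy9-202 in the first quantification (58.8% and 56.8%) and Adcy9-203 in the second (50% and 51.9%).

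Phosphodiesterases that split both cAMP and cGMP summed to 345 ± 25.9 TPM (SD, n = 2). Pde2a, which cGMP activates, led, and its level was 170.2 TPM in replicate 1 and 165 in replicate 2. This value is uncertain because 3955 bases of its exons overlap Gm45837 on the same strand, which stood at 0 TPM in both libraries. The calmodulin-dependent Pde1a stood at 65.4 and 62.9 TPM and Pde1b at 62.6 and 51.5 TPM. Pde1a was above Pde1b in both libraries. Pde10a, known for its high level in the medium spiny neurons of the striatum, stood at 56.9 and 38.5 TPM. Pde3b, Pde11a, Pde1c and Pde3a lay between 1.08 and 3.92 TPM. For Pde2a the first quantification put 41.3% and 38.1% of TPM on Pde2a-209, annotated as a target of nonsense-mediated decay, and the second 1.54% and 6.93%, with the coding Pde2a-204 leading at 47.6% and 40.7%. Pde2a-201 was close in all, at 31.3% and 34.0% and at 31.2% and 33.9%. Pde1a-206 held 75.6% and 72.0%, Pde1b-201 80.6% and 82.8%, and Pde10a-202 64.4% and 57.6%. These 3 also led in the second quantification, with lower shares.

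The cAMP-specific phosphodiesterases summed to 218 ± 2.98 TPM (SD, n = 2), and no single gene led. Pde8b, a high-affinity enzyme, stood at 48.4 and 54.0 TPM in replicates 1 and 2. Pde4b stood at 51.4 and 47.8 TPM and Pde4d at 49.2 and 48.8 TPM, and the ranges of these 3 genes overlapped. Pde4a stood lower, at 37.2 and 37.6 TPM. The PDE4 enzymes are the targets of rolipram and their splice forms differ in where they are anchored. Pde4a-202 held 57.4% and 59.2% with Pde4a-201 at 40.3% and 37.4%, Pde4b-207 held 48.3% and 49.3%, and Pde4d-207 held 43.7% and 43.5%, and each of these led in both quantifications. Pde7b stood at 15.6 and 13.3 TPM and Pde7a at 11.3 and 15.6 TPM, so their order turned between the libraries, with a ratio of 1.37 and 0.856. In the second quantification the ratio was 1.02 and 0.831, so the pair were nearly equal in replicate 1. Pde8a lay near 2 TPM and Pde4c below 1 TPM.

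Among cGMP-specific enzymes, Pde9a stood at 9.15 and 12.9 TPM in replicates 1 and 2, and Pde5a at 3.33 and 5.25 TPM. Both had a higher TPM in replicate 2 and did not overlap each other. Pde5a had 453 and 496 expected counts, a log2 ratio of 0.13 with a counting SE of 0.09. It was not called in the test between libraries given below. The second quantification put Pde5a at 8.72 and 9.42 TPM. Pde6d and Pde12 carry the symbol without being cyclic nucleotide phosphodiesterases. Pde6d, a chaperone for prenylated proteins, stood at 30.1 and 29.9 TPM. Pde12, an RNA-trimming enzyme of mitochondria, stood at 4.54 and 4.37 TPM, and its exons overlap those of Arf4 on the other strand by 527 bases.

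Anchors summed to 468 ± 19.0 TPM (SD, n = 2) over 16 genes, of which 13 were detected. Akap6, an anchor of the nuclear envelope, led with 91.6 TPM in replicate 1 and 86.7 TPM in replicate 2. Akap11, which also binds protein phosphatases and the kinase GSK3 beta, stood at 75.8 and 77.2 TPM. The nuclear anchors Akap8l and Akap8 stood at 58.5 and 77.6 TPM and at 26.3 and 35.6 TPM, both higher in replicate 2. Akap5, which brings PKA and calcineurin to the postsynaptic density, stood at 52.6 and 51.5 TPM. Akap9, of the centrosome and Golgi, stood at 38.6 and 39.9 TPM and Akap7, a small membrane anchor, at 38.1 and 38.7 TPM. These overlapped each other, and Akap5 lay above both in each library. In the second quantification Akap9 and Akap7 did not overlap, with Akap9 at 48.7 and 46.3 TPM and Akap7 at 53.0 and 56.2 TPM. Akap2 stood at 20.03 and 18.7 TPM, and its value is uncertain because 6891 bases of its exons overlap Pakap on the same strand. Akap1, of the outer mitochondrial membrane, stood at 19.3 and 18.2 TPM. Akap10 stood at 11.98 and 14.6 TPM and Akap13, which is also a guanine nucleotide exchange factor, at 10.1 and 10.6 TPM. Akap12 at 8.30 and 8.39 TPM and Akap17b at 3.62 and 4.2 TPM closed the detected anchors. Akap6 was split between Akap6-201 (52.1% and 53.3%) and Akap6-202 (47.9% and 46.7%) in a way that both quantifications gave. Akap5-201 held 65.6% and 70.5%. Akap7-203 held 74.1% and 70.8% in the first quantification and nearly none in the second, where the noncoding Akap7-204 held 74.5% and 69.0%. Over the 36 members at 10 TPM or more, 31 had the same leading transcript in both libraries and 24 had it in both libraries and both quantifications.

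The libraries were compared gene by gene on expected counts, with an exact two-sided binomial test that takes counting error alone, adjusted by Benjamini-Hochberg over the 18887 genes with 10 counts or more in a library. It compares these 2 libraries, not conditions. Of the 57 members 51 could be tested, and 18 were called, 4 higher and 14 lower in replicate 2. That is 35.3% of the members tested, beside 20.3% of all genes. By direction, 7.84% of members were called higher beside 8.88% of all genes, and 27.5% lower beside 11.4%. Abundant genes are called more often: of the 26 members with at least 3396 counts over both libraries, 15 were called, and 45.6% of all genes at that count were. Calls in each direction were not set against genes of like count. The median log2 ratio of replicate 2 over replicate 1 was -0.05 over members tested and 0.00 over all genes. It was 0.01 for members when libraries were scaled by total counts and 0.00 by spike-ins, which moved every ratio up by 0.06 and 0.05, and 8 and 7 members were then called higher and 12 lower under either scaling. Across all genes, 43.8% of calls were in the higher direction, and 70.5% and 67.6% under those scalings. With an assumed dispersion of 0.01 between libraries, edgeR's exact test called 0 members beside 0.964% of all genes. Of the 51 members tested 2, Pde10a and Akap8l, had an unadjusted p under 0.05 in it. The share of all genes under that unadjusted threshold is not given here, so the count of 2 is not read as a result about the members.

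**Figure D3:**
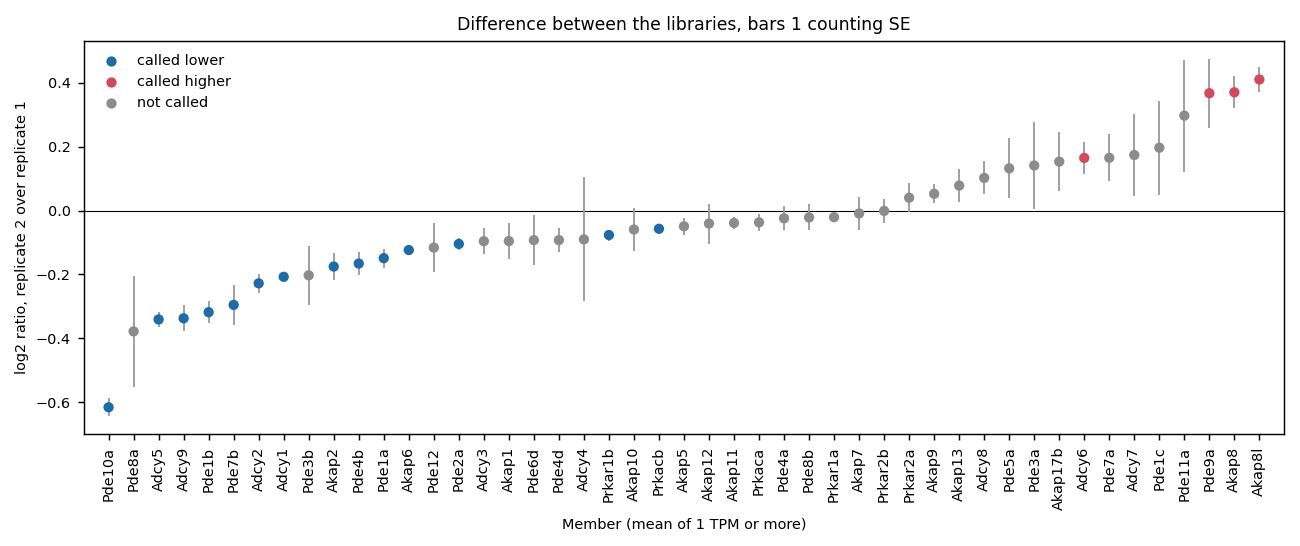
Log2 ratio of replicate 2 over replicate 1 (vertical axis) for each member with a mean of 1 TPM or more, ordered by ratio, with bars of 1 counting SE. Colour gives the call of the exact binomial test. Pde10a lies lowest at -0.62 and Akap8l highest at 0.41, and most members lie between them within 0.4 of 0.

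Pde10a fell furthest among the members called. Its expected count was 6865 in replicate 1 and 4476 in replicate 2, which gave a log2 ratio of -0.62 with a counting SE of 0.03 (exact binomial adjusted p = 4.3e-109). The gene lies at chr17:8525372-8986648 of mm10. Adcy5 had 7935 and 6260 counts, a log2 ratio of -0.34 ± 0.02 (exact binomial adjusted p = 2.02e-42). For Adcy9 the counts were 2840 and 2246, and the log2 ratio was -0.34 ± 0.04 (exact binomial adjusted p = 4.66e-15). Pde1b had a log2 ratio of -0.32 ± 0.03 and Pde7b of -0.30 ± 0.06. Adcy2 and Adcy1 followed at -0.23 ± 0.03 and -0.21 ± 0.01. Akap2, Pde4b, Pde1a, Akap6, Pde2a, Prkar1b and Prkacb, the rest of the 14, had ratios from -0.18 to -0.06. Prkacb turned to 0.00 under total counts, and neither Prkacb nor Prkar1b was called under total counts or spike-ins. Akap2 was not called in the second quantification. Pde10a, Adcy5, Pde1b and Pde7b are known from the striatum. Of the 9 striatal markers 8 were called lower as well, with a median log2 ratio of -0.62 over the 9 and none at 0. Rgs9, a regulator of G protein signalling in the striatum, stood at 24.8 and 15.1 TPM, and Tac1, the 1 not called, at 15.2 and 16.4 TPM. Of the myelinating oligodendrocyte genes 11 of 12 were called lower, with a median of -0.90, and of the excitatory neuron genes 6 of 7, with a median of -0.16. Of the oligodendrocyte precursor genes 5 of 6 were called lower (median -0.18), of the microglial genes 3 of 6 (median -0.16) and of the interneuron genes 1 of 7 (median -0.05). Of the 7 astrocyte genes 4 were called lower and 2 higher (median -0.13), and none of the 6 endothelial and mural genes was called (median -0.05). The part of any of these cell types in the ratios of the members was not tested.

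The members called higher in replicate 2 were Akap8l, Akap8, Pde9a and Adcy6. Akap8l had 2278 expected counts in replicate 1 and 3025 in replicate 2, a log2 ratio of 0.41 ± 0.04 (exact binomial adjusted p = 6.27e-23). Akap8 had 1482 and 1914 counts and a log2 ratio of 0.37 ± 0.05 (exact binomial adjusted p = 3.93e-12). The pair are neighbours on the reverse strand, at chr17:32321424-32350607 and chr17:32303672-32321238, with 186 bases from the start of one to the end of the other. Pde9a had 315 and 406 counts and a log2 ratio of 0.37 ± 0.11 (exact binomial adjusted p = 0.00552), and was not called in the second quantification, where the ratio was 0.25. Adcy6 rose by 0.16 ± 0.05 on the log2 scale. All 8 choroid plexus markers were called higher too, with a median log2 ratio of 1.94 and none at 0 in both libraries. Only 2 of the 8 were detected, Ttr with a ratio of 3.67 ± 0.10 and Kl with 0.52 ± 0.18. The part of choroid plexus RNA in the ratios of the 4 genes was not tested.

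The rise of Akap8l and Akap8 lay on transcripts that are not annotated as protein-coding, that is, those with a retained intron, those marked for nonsense-mediated decay and processed transcripts. Coding transcripts of Akap8l went from 916 counts to 609, a log2 ratio of -0.59 ± 0.08, while the others went from 1362 to 2416, a ratio of 0.83 ± 0.05. In the second quantification the ratios were -0.51 ± 0.07 and 0.74 ± 0.05. Noncoding transcripts thus held 59.8% of Akap8l counts in replicate 1 and 79.9% in replicate 2. For Akap8 the coding ratio was -0.27 ± 0.09 and the other 0.63 ± 0.06, and -0.05 ± 0.11 and 0.43 ± 0.05 in the second quantification. The noncoding share of Akap8 was 64.2% and 77.1%. Pde9a, also called higher, had 0.19 ± 0.12 on coding transcripts and 1.31 ± 0.29 on others. In the second quantification its ratios were -0.28 ± 0.15 and 1.03 ± 0.18. Adcy6 had 0.06 ± 0.06 on coding transcripts and 0.46 ± 0.10 on others, and 0.14 ± 0.05 and 0.16 ± 0.13 in the second quantification. Pde10a was split in the same way as Akap8l and Akap8, with -0.70 ± 0.03 on coding transcripts and 0.88 ± 0.13 on others. The latter held 2.99% and 8.44% of Pde10a counts. Pde8b, not called as a gene, had -0.12 ± 0.04 and 0.79 ± 0.13. Adcy3 went the other way, with -0.02 ± 0.04 on coding transcripts and -0.65 ± 0.12 on others, and -0.28 ± 0.10 on others in the second quantification. The ratio on other transcripts depended on the quantification in several members. It was -0.22 ± 0.03 in the first and 1.55 ± 0.09 in the second for Pde2a, -0.44 ± 0.36 and 0.81 ± 0.19 for Akap1, and -0.03 ± 0.34 and -1.54 ± 0.12 for Pde1a. For Akap7 it was 1.49 ± 0.36 and -0.12 ± 0.06, and for Pde7a 0.66 ± 0.21 and -0.03 ± 0.19. These errors are of counting alone and do not hold the error of dividing reads between transcripts.

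Of 26 members with at least 20 counts in each class in a library, 20 (76.9%) had a higher ratio on the other transcripts than on the coding ones, with a median difference of 0.46. Over all 5735 genes at 10 TPM or more that met the same minimum it was 69.2%, with a median of 0.23. In the second quantification the shares were 75.0% of 24 members and 68.0% of 5698 genes, with medians of 0.19 and 0.19. The shift was thus in the same direction in most of the genes that met this minimum. Retained-intron transcripts held 2.48% of all gene counts in replicate 1 and 3.07% in replicate 2. The part of this shift in the ratios of Akap8l, Akap8, Pde9a and Adcy6 was not tested.

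**Figure D4:**
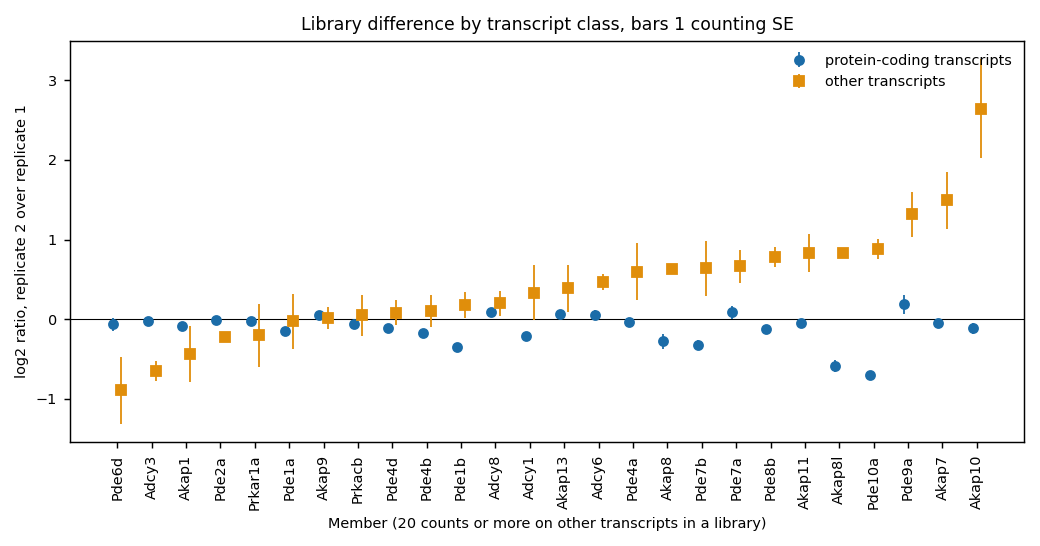
Log2 ratio of replicate 2 over replicate 1 (vertical axis) on protein-coding transcripts (circles) and on other transcripts (squares) of 26 members in the first quantification, ordered by the latter, with bars of 1 counting SE. Akap8l, Akap8, Pde10a, Pde8b, Pde7b, Akap7, Akap10 and Akap11 have coding ratios below 0 and other ratios above 0.6.

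Other genes of the pathway were taken from lists by role, and their calls are to be read against the 8.88% of all genes called higher and the 11.4% called lower. Of 22 upstream receptors and G proteins 21 were detected, 2 were called higher and 7 lower, and the median log2 ratio was 0.00. Gnas, the stimulatory G protein subunit, stood at 913 and 956 TPM, and its relative Gnal, which couples to Adcy5 in the striatum, at 82.0 and 77.2 TPM. The lowest ratios were those of the dopamine receptor Drd2 (-1.26 ± 0.14) and the adenosine receptor Adora2a (-1.02 ± 0.09), which are also among the striatal markers. The serotonin receptor Htr4 was among those called higher (0.68 ± 0.23). Of 9 PKA inhibitors and other cAMP effectors 8 were detected and 3 called lower, led by Hcn2 (-0.19 ± 0.04) and Rapgef4 (-0.12 ± 0.03), with a median of 0.05. Pkia, an inhibitor peptide of PKA, stood at 141 and 138 TPM, beside the catalytic sum of 365 and 376 TPM. All 9 PKA targets and CREB genes were detected, with 2 called higher and 3 lower and a median of 0.06. Ppp1r1b, the striatal phosphatase inhibitor DARPP-32, fell by 0.86 ± 0.04 on the log2 scale and Crem by 0.29 ± 0.11, while Creb1 rose by 0.13 ± 0.05 and Arpp21 by 0.06 ± 0.02. Of 12 anchoring proteins with other names 11 were detected, 2 called higher and 5 lower, with a median of -0.08. Map2, which binds PKA to dendritic microtubules, stood at 426 and 462 TPM, above every gene named Akap in both libraries. Ezr (-0.36 ± 0.05) and Myrip (-0.15 ± 0.04) had the lowest ratios called among them and Cbfa2t3 (0.18 ± 0.07) and Map2 (0.03 ± 0.01) the highest. All 5 genes of cGMP synthesis and its kinases were detected, with Prkg2 called higher (0.40 ± 0.11), Gucy1a2 lower (-0.15 ± 0.05) and a median of -0.01.

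Promoter windows were available for 46 of the 57 genes, 88 windows of 300 bases in all. In 70 of these the start lay within 50 bases of an annotated transcript start. The full element TGACGTCA stood in 2 of the 88 (2.27%), both at Prkar1a and overlapping, beside 1.79% of all 32851 windows. The window at chr11:109650612-109650911 was not among the 70. A TGACG or CGTCA stood in 18 of the 88 (20.5%) beside 20.8% of all windows. The windows of Prkaca-201 and Prkacb-202 held CGTCA, and the window of Prkacb-203 held none. It stood 120 and 6 bases before the RefSeq start in the window of Prkaca-201 and 102 bases before it in that of Prkacb-202. By this count the members' windows carried these letters about as often as other promoters.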

How the data were processed

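Both libraries are total RNA of the left cerebral cortex. The authors deposited gene and transcript tables with expected counts, not normalized, and TPM, scaled by the authors to a fixed total per table, per the file headers. A second transcript table gives estimated counts and TPM quantified from the reads, and its values were summed per gene. Assembly mm10 and GENCODE M21 are named in the text files deposited beside the tables. The sources used here do not give the tools, their settings or the strand setting of the counting, so overlapping and antisense genes are uncertain. Numbered rows that name no gene and spike-ins entered neither the gene totals nor the tests, and 86 genes have no row in the second table.

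Gene totals were 33362704 and 32013997 counts. Expected counts were rounded and compared with a two-sided exact binomial test (scipy 1.17.1, Python 3.11.15), with TMM library sizes from edgeR 4.0.16 in R 4.3.3 over genes with 10 counts or more, and Benjamini-Hochberg adjustment over 18887 genes, called at an adjusted p under 0.05. The script was tested on simulated data. No pseudocount was used, and SEs of log2 ratios are counting SEs. As only 1 library stands on each side, p-values cover counting error only, which reads without molecular identifiers understate. Alternatives were total counts, spike-ins, DESeq2 1.42.0 size factors, other count minimums, an assumed dispersion of 0.01 and the second table. Full values are given for members with a mean of 10 TPM or more or called with a log2 ratio of at least 0.4 either way. Named transcripts are the leading ones of members at 10 TPM or more and others with a share of 10% or more, and Prkacb-204 was added for its start. From each list of other pathway genes the called members with the 2 largest ratios either way are named, except 1 that is not reported here, and Gnas, Gnal, Pkia, Map2, Rgs9 and Tac1 were added as examples after their values were seen. Promoter windows are RefSeq's on GRCm38.p6, and 70 of the 88 were tied to a GENCODE start within 50 bases. All 88 entered the motif counts. The members and lists were chosen with earlier results of these data known.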

Additional observations from a re-analysis of the deposited data

How the results depend on the processing

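The count of 18 members called was 18 to 20 under every scaling, count minimum and quantification tried, and 0 with an assumed dispersion of 0.01, where 0 were higher and 0 lower. The count called higher, 4, became 8 with total counts and 7 with spike-ins. All 18 kept their call with DESeq2 size factors, without a count minimum and at 50 counts or more, and 16 of the 18 did with total counts, with spike-ins and in the second quantification. The log2 ratio of Prkacb turned to 0.0013 with total counts. Members detected numbered 48 at 0.5 TPM, 43 at 2 TPM and 47 in the second quantification and in either library alone. Role sums moved with the scale of TPM. In the second quantification and with TPM over protein-coding genes alone, they were 665 and 725 TPM for PKA catalytic genes, 912 and 1138 for regulatory genes, 672 and 917 for anchors, 497 and 675 for dual-substrate and 317 and 426 for cAMP-specific phosphodiesterases, and 32.9 and 31.2 for cGMP-specific ones. They were 290.2 and 384 TPM for calcium-stimulated cyclases, 95.2 and 141 for calcium-inhibited ones, 81.3 and 113 for those stimulated by beta gamma subunits, 36.4 and 51.4 for Adcy9, 0.5004 and 0.352 for the soluble cyclase, and 52.3 and 69.0 for genes with the Pde symbol only. Leaving out a replicate was not possible for the test between libraries, which needs both. No paired analysis was possible because the labels give 1 group.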
